A study of Homo sapiens with 10 samples.

Results

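The MYC, MAX and MXD network is a family of transcription factors that share the partner MAX. Its members were taken by name: MYC, MYCL, MAX, MXD1, MXD3, MXD4, MXI1, MNT, MGA and MLX, found through their Ensembl identifiers. All 10 were present among the 20327 genes of the expression tables. Their RNA was followed in hTERT RPE-1, 1 wild-type line of human retinal pigment epithelium immortalised with telomerase, treated with the topoisomerase II inhibitor merbarone. The series title names the control of RNA polymerase II pausing near promoters by DNA supercoiling as the question. Every group, controls included, had spent 48 h in medium with 0.1% serum. In the 30 min experiment, 3 libraries of cells given merbarone at 200 µM for 30 min were set against 3 of cells given the vehicle DMSO for 30 min. In the 2 h experiment, 2 libraries of cells given merbarone at 200 µM for 2 h were set against 2 of untreated cells, which had no vehicle. The labels do not say whether replicates came from separate cultures, so p-values measure only the spread between these libraries, which may be technical.

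MYC and MYCL bind DNA at E-box sequences as heterodimers with MAX and activate genes of growth and metabolism. MXD1, MXD3, MXD4, MXI1 and MNT compete with them for MAX and bring the SIN3 and histone deacetylase corepressor to the same sites, while MGA joins MAX in a Polycomb-type repressor complex. MLX is a parallel partner that pairs with some of the same antagonists and with the glucose sensors MLXIP and MLXIPL.

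The E-box that the network's dimers recognise best, CACGTG, is its own reverse complement and can be looked for in the members' own promoters. RefSeq promoter windows (GRCh38.p14), read over the 250 bases before the annotated start, were taken for 9 of the 10 members, with 14 windows in all. MYC was left out of this search, so the counts for the members do not cover it. CACGTG was present for 3 members (MXD4, MNT and MLX), in 3 of the 14 windows, and in 6.34% of all 35116 windows of this length. The windows below belong to the members that differed most after 2 h beside MYC, with the E-box in capitals. MXD4 (minus strand, chr4:2262110-2262359) has it 238 bases and MNT (minus strand, chr17:2401061-2401310) 193 bases before the start, and the MXD1 window (plus strand, chr2:69914859-69915108) has none. A match describes the letters only.
MXD4: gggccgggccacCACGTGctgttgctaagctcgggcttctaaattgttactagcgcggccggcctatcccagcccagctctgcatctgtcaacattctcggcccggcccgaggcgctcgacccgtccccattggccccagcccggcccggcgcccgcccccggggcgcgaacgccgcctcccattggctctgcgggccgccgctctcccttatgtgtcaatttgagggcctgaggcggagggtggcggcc
MNT: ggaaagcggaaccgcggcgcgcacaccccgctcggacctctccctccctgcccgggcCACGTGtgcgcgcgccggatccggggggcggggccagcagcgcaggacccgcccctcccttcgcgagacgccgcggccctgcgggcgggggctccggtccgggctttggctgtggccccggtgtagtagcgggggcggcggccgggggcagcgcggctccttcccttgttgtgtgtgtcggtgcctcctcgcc
MXD1: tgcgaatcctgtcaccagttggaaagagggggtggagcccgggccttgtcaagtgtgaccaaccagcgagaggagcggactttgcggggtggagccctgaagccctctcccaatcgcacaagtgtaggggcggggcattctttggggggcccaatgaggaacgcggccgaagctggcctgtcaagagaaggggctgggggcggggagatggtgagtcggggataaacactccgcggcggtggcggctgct

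RNA levels are given as RPKM, the reads of a gene divided by its length and by the depth of the library. The length used in the deposited tables was the whole span with introns for most genes. Read numbers were recovered from these values and totalled 26636756 to 38229061 per library in the 30 min experiment and 11958066 to 13691933 in the 2 h experiment. Of the pigment epithelium markers, BEST1 (2.10 to 20.0 RPKM), OTX2 and PMEL were present in all 10 libraries. The visual cycle enzyme RPE65 stayed at 0.0656 RPKM or below and DCT was listed at 0 in all 10. Of the other pigment markers, RLBP1, TYRP1, TTR and TYR reached at most 0.0603, 0.0558, 0.0200 and 0.00338 RPKM, and MITF 0.415. The leukocyte marker PTPRC reached at most 0.00758 RPKM and the endothelial marker CDH5 was listed at 0 in all 10. Of the same list of other cell types, 7 of whose genes were found, the macrophage marker CD68, a lysosomal protein, lay at 17.4 RPKM or more in all 10 libraries. NRL, a transcription factor of rod photoreceptors, was at 0.385 ± 0.00904 RPKM in untreated cells and 1.42 ± 0.343 after 2 h of merbarone (SD, n = 2; adjusted p = 1.78e-07 by limma voom). The list summed to 21.3 to 21.6 RPKM in untreated cells and 19.1 to 20.1 after 2 h, and its part in the results below was not tested. The summed pigment list lay at 8.83 to 11.5 RPKM in the 30 min experiment and at 25.1 to 29.0 in the 2 h experiment. Most of this gap was BEST1, with group means of 2.58 and 2.48 RPKM in the former and 18.8 and 18.5 in the latter. Over all groups the means of OTX2 lay at 3.23 to 4.48 RPKM and those of PMEL at 4.10 to 4.87. Both replicate 1 libraries of the 30 min experiment stood apart from the other 4, and values are therefore given for every library.

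Among the members themselves, levels were compared as recovered reads scaled to depth and to summed exon length in kilobases, since RPKM over the span lowers genes with long introns. MXD4 was the most abundant member in DMSO, at 20.2 ± 2.53 (SD, n = 3), followed without overlap by MAX, the common partner, at 15.0 ± 0.790. MXD3, MLX and MYC followed at 12.5 ± 2.83, 11.8 ± 1.10 and 8.79 ± 2.36 (all SD, n = 3), and neighbours from MAX down to MYC overlapped. MXD1 (4.73), MXI1 (4.47) and MNT (4.04) lay lower and overlapped in turn, and MGA (1.06) and MYCL (0.0505) were the lowest pair in all 4 groups. In untreated cells MXD4 had the highest mean again, 22.0 ± 4.04 (SD, n = 2), but its libraries overlapped those of MXD3 at 19.8 ± 2.57. MYC stood below MXD3 and MAX at 16.7 ± 0.524. After 2 h of merbarone MYC was first at 29.0 ± 3.69 (SD, n = 2), with no overlap with MAX at 16.3 ± 0.410, while MXD4 stood below MAX and MXD3 at 14.7 ± 0.308. These orders are descriptions and were not tested. The place of MAX would be too high if reads of its introns or of overlapping genes were counted for it. The same holds for intron reads of MXI1, MXD1 and MGA. These span 79761, 45258 and 151948 bp, with 5907, 6351 and 20074 bp of exon. The sources used here do not give which reads were counted. By the deposited RPKM the order in DMSO differed, with MXD4 at 9.32, MYC at 8.95 and MAX at 0.974.

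**Figure D1:**
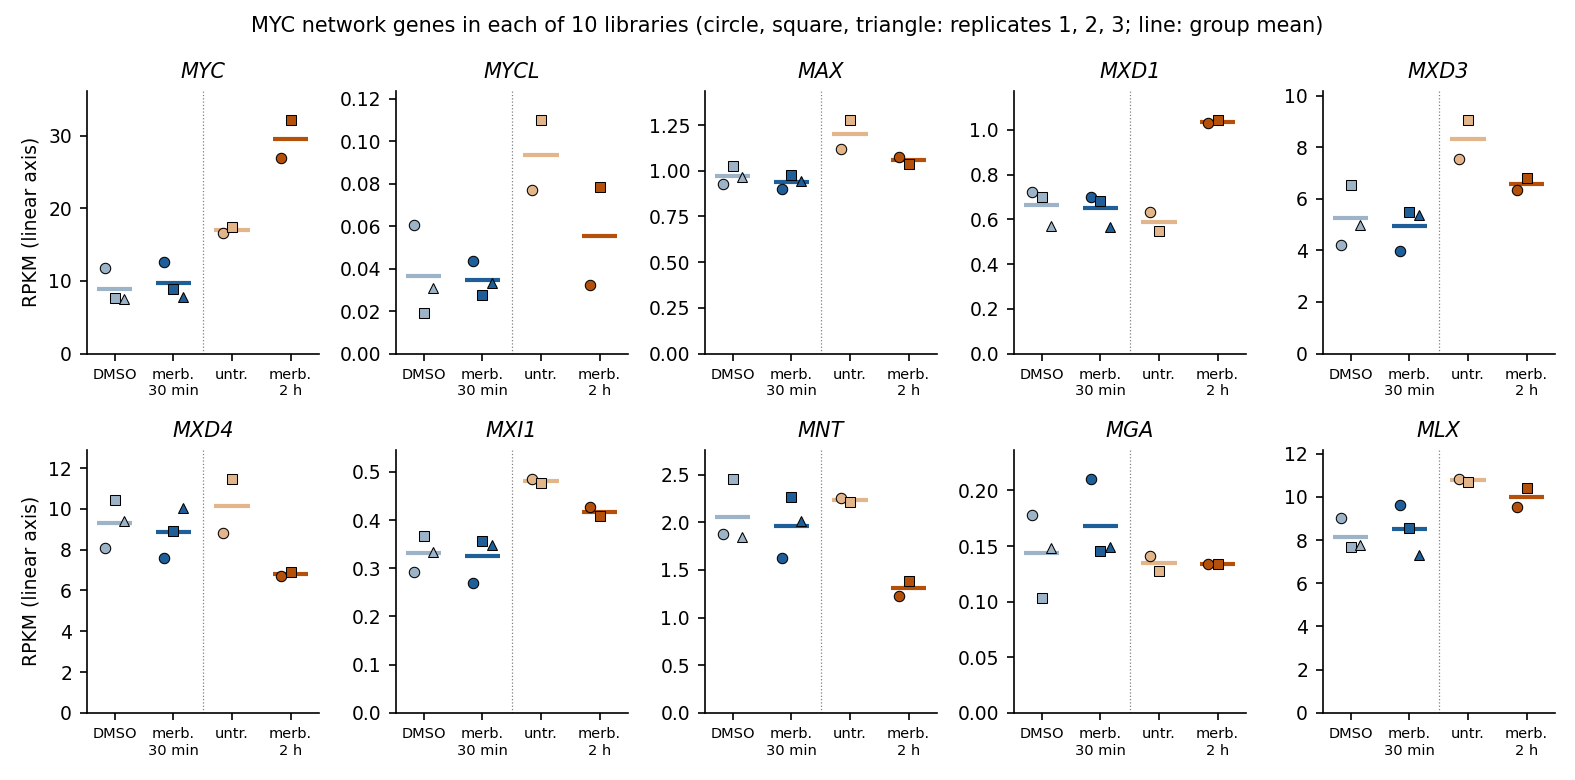
RPKM of the 10 members in each of the 10 libraries, on linear axes from 0, by group; points are libraries (circles, squares and triangles for replicates 1, 2 and 3) and lines are group means. MYC stood at 16.6 and 17.4 RPKM in untreated cells and at 26.9 and 32.2 after 2 h of merbarone, while MNT and MXD4 lay lower in both treated libraries.

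After 2 h of merbarone, MYC RNA rose and the RNA of its antagonists MNT and MXD4 fell, against untreated cells. These cells had no vehicle, so merbarone and vehicle cannot be told apart in any 2 h result. A gene counted as changed at an adjusted p under 0.05 (limma on log2(RPKM + 1), Benjamini-Hochberg over all genes averaging 1 RPKM or more). Of the 6 members that passed the filter (MYC, MAX, MXD3, MXD4, MNT and MLX), 3 changed, 1 up and 2 down. Over all 6620 genes tested, 13.1% changed, 5.98% higher and 7.1% lower. The members' median log2 change was -0.20 and that of all genes -0.048. For all 6 the treated libraries lay wholly beyond the untreated ones. With 2 libraries a group, 61.5% of all genes tested also did, so little can be read from that count. In bulk RNA, fewer cells with a transcript and less of it per cell cannot be told apart.

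MYC (chromosome 8, plus strand) was at 16.6 and 17.4 RPKM in the untreated libraries and at 26.9 and 32.2 RPKM after 2 h. Both treated libraries were above both untreated ones, and the group means were 17.0 ± 0.534 and 29.6 ± 3.76 RPKM (SD, n = 2). The mean ratio was 1.74-fold, and on the log2(RPKM + 1) scale the change was 0.76 ± 0.12 (SE, adjusted p = 0.00454 by limma). Leaving out any 1 of the 4 libraries left the change between 0.63 and 0.92, with recovered reads tested as well. The call was lost when the spread was estimated over all 10 libraries (adjusted p = 0.0749 by limma) or when no filter on low genes was used (0.103).

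MNT, the most widely expressed of the MAX-binding repressors (GRCh37 chr17:2287367-2304398, minus strand), was at 2.26 and 2.21 RPKM in untreated cells and at 1.23 and 1.39 RPKM after 2 h. The treated libraries lay below the untreated ones and the replicates differed little within either group. The untreated mean was 1.71 times the treated one (log2 change -0.49, SE 0.072, adjusted p = 0.00379 by limma). Leaving out any 1 of the 4 libraries left the change between -0.86 and -0.44, with recovered reads tested as well. The call was lost with no filter on low genes (adjusted p = 0.0922 by limma).

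MXD4, an antagonist typical of resting and differentiated cells (GRCh37 chr4:2249159-2263836, minus strand), was at 8.83 and 11.5 RPKM in untreated cells and at 6.70 and 6.90 RPKM after 2 h. The untreated libraries were farther apart than the treated ones, and the groups did not overlap. The group means were 10.2 ± 1.87 and 6.80 ± 0.143 RPKM (SD, n = 2). The log2 change was -0.51 ± 0.12 (SE, adjusted p = 0.0282 by limma). This call was less stable than that of MNT. It was lost without merbarone replicate 1 (adjusted p = 0.0920 by limma), without merbarone replicate 2 (0.0503), with all 10 libraries in the fit (0.0701) and with no filter (0.177).

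MXD3, an antagonist linked to S phase in proliferating progenitors (GRCh37 chr5:176728462-176739758, minus strand), was at 7.54 and 9.07 RPKM in untreated cells and at 6.36 and 6.82 RPKM after 2 h. Its libraries did not overlap, yet the log2 change, -0.29 ± 0.11 (SE), did not pass the test (adjusted p = 0.106 by limma). Without untreated replicate 1, the lower of the untreated pair, it was -0.41 (adjusted p = 0.00203 by limma), and without untreated replicate 2 it was -0.17 (0.211). MXD3 overlaps RAB24 on the same strand by 2284 bp and PRELID1 on the other, and the sources used here do not give how shared reads were counted.

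MXD1, an antagonist induced when many cell types differentiate (GRCh37 chr2:70124820-70170077, plus strand), went the other way from MNT and MXD4. It lay below the filter of 1 RPKM, at 0.633 and 0.547 RPKM in untreated cells and at 1.03 and 1.05 RPKM after 2 h. Both treated libraries were above both untreated ones, at a mean ratio of 1.76-fold. On recovered reads (limma voom, genes averaging 10 reads or more), 9 members could be tested and 4 changed, beside 14% of 13441 genes. MXD1 rose by 0.81 ± 0.13 on the log2 scale (SE, adjusted p = 2.93e-04 by limma voom). Leaving out each of the 4 libraries gave 0.71 to 0.92 by limma voom. The same test on all 4 libraries gave MYC 0.79 (adjusted p = 6.70e-05), MNT -0.78 (6.34e-04) and MXD4 -0.56 (0.00367), all by limma voom. Tested on log2(RPKM + 1) with no filter on low genes, MXD1 changed by 0.36 and was not called (adjusted p = 0.102 by limma). MXD1 shares 7888 bp on the same strand with SNRNP27, a splicing factor gene, whose own log2 change was 0.079 (adjusted p = 0.759 by limma voom).

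MAX, the common partner of MYC and its antagonists (GRCh37 chr14:65472892-65569413, minus strand), did not pass the test. It was at 1.12 and 1.28 RPKM in untreated cells and at 1.07 and 1.04 RPKM after 2 h. The log2 change was -0.096 (95% interval -0.25 to 0.055, adjusted p = 0.353 by limma). It passed only on recovered reads without untreated replicate 1 (-0.28, adjusted p = 0.0324 by limma voom). MAX overlaps FNTB by 56479 bp and the readthrough gene CHURC1-FNTB by 55630 bp, both on the opposite strand. Recovered reads per library were 1306 to 3565 for MAX, 1381 to 3681 for FNTB and 1236 to 3408 for CHURC1-FNTB. The sources used here do not give how shared reads were counted, so the MAX values may hold reads of these genes.

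The remaining members showed no change that passed a test at 2 h. MLX (GRCh37 chr17:40719090-40725257, plus strand) was at 10.8 and 10.7 RPKM in untreated cells and at 9.53 and 10.4 after 2 h, a log2 change of -0.10 (95% interval -0.32 to 0.12). MXI1, an antagonist also known as MXD2 (GRCh37 chr10:111967363-112047123), was at 0.485 and 0.477 RPKM and then at 0.428 and 0.408, with an adjusted p of 0.303 by limma voom. MGA (GRCh37 chr15:41913332-42065279) was at 0.141 and 0.128 RPKM and then at 0.134 in both treated libraries, which lay between the untreated ones. MYCL, a tissue-restricted MYC relative (GRCh37 chr1:40361100-40367928), had 3 to 11 reads in a library over the whole series, too few for a difference to be detectable. Of the 9 members averaging 10 reads or more, 8 had treated libraries wholly beyond the untreated ones, all but MGA, as did 58.1% of the 13441 genes at that depth.

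**Figure D2:**
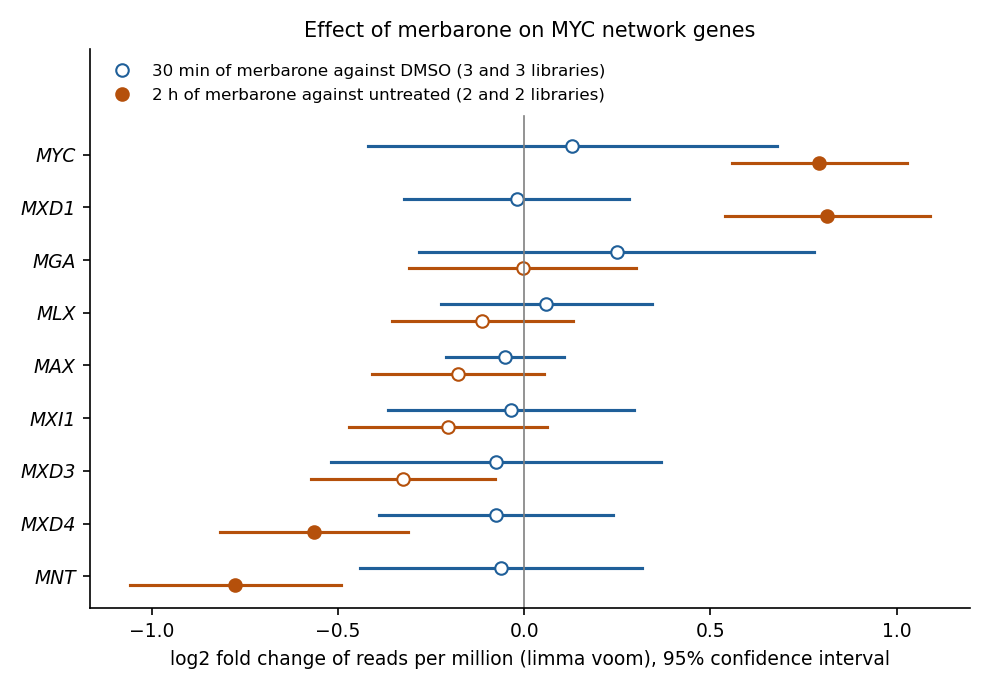
Log2 change in recovered reads (limma voom) of 9 members after 30 min of merbarone against DMSO and after 2 h against untreated cells, with 95% intervals; filled points passed an adjusted p under 0.05. At 2 h MYC and MXD1 lie at 0.79 and 0.81 and MNT and MXD4 at -0.78 and -0.56, while at 30 min all 9 intervals include 0.

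Ratios between members within a library need no scaling between libraries, and they set the rise of MYC against the antagonists. Recovered MYC reads per MNT read were 2.58 and 2.76 in untreated cells and 7.69 and 8.15 after 2 h. MYC reads per MXD4 read were 0.759 and 0.611 in untreated cells and 1.62 and 1.88 after 2 h. Both ratios were higher in both treated libraries, with wide gaps to the untreated ones. For MXD1, which rose beside MYC, the mean ratio was 3.84 in untreated cells and 3.77 after 2 h, and the libraries overlapped. Set against the summed level per exon length of 6 antagonists (MXD1, MXD3, MXD4, MXI1, MNT and MGA), MYC was 0.304 and 0.275 in untreated cells and 0.572 and 0.661 after 2 h. In DMSO the same quotient was 0.276, 0.140 and 0.161, and after 30 min of merbarone it was 0.315, 0.182 and 0.157. These ratios were chosen after the values were seen and are descriptions, and with 2 libraries a group an exact two-sided permutation test cannot give a p below 0.333.

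**Figure D3:**
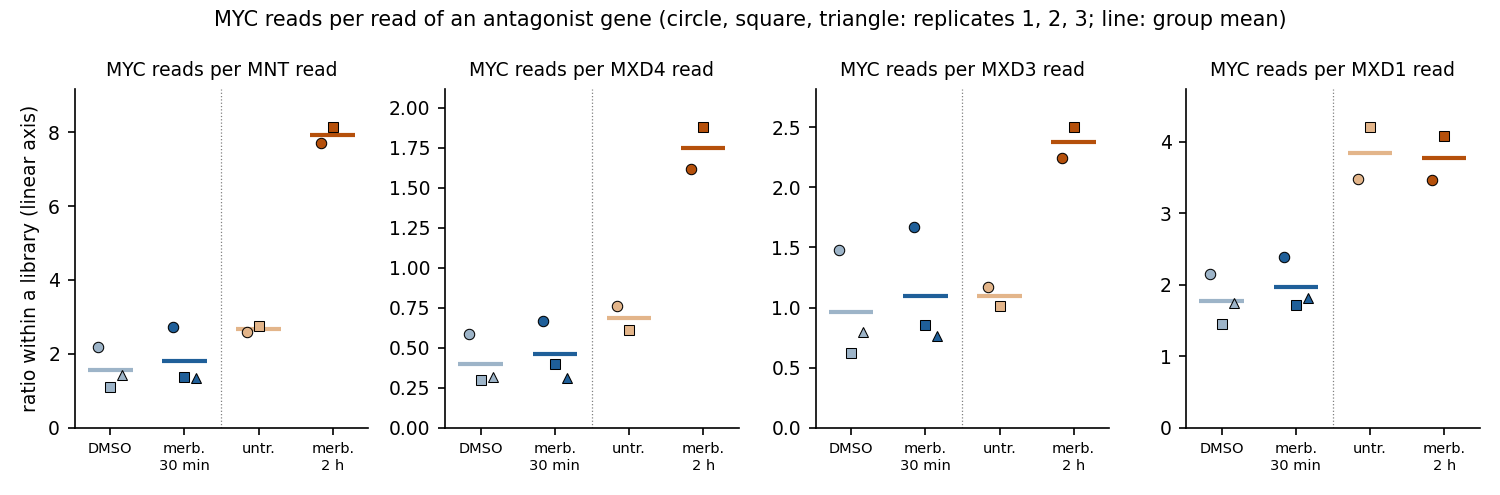
Recovered MYC reads per read of MNT, MXD4, MXD3 and MXD1 in each library, on linear axes from 0, by group; points are libraries and lines are group means. After 2 h of merbarone the ratios to MNT (7.69 and 8.15) and MXD4 (1.62 and 1.88) lie above those of the untreated libraries, while the ratio to MXD1 overlaps them.

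After 30 min of merbarone none of the members passed the test. Of the 5 that could be tested (MYC, MXD3, MXD4, MNT and MLX), 0 changed by limma, beside 0.0154% of 6500 genes, which was 1 gene, and 0 members were under 0.05 before adjustment. Blocking on replicate number gave 8 changed genes (0.123%), none of them a member. On recovered reads 0 of 9 members changed by limma voom, beside 0.00714% of 14014 genes. None of the members had treated libraries wholly beyond the DMSO ones, which 2.28% of genes did. Depth was higher here than at 2 h, and the interval for MYC ran from -0.42 to 0.64 on the log2 scale, wide enough to hold falls as well as rises.

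MYC was at 11.7, 7.65 and 7.48 RPKM in DMSO and at 12.6, 8.82 and 7.73 RPKM after 30 min, in replicates 1 to 3. Within each pair of equal number the treated library was higher, by 1.07-, 1.15- and 1.03-fold, but the groups overlapped widely. The log2 change was 0.11 ± 0.22 (SE). With the replicate block its unadjusted p was 0.0461 and its adjusted p 0.9998 by limma.

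The antagonists overlapped between the groups as well. MNT was at 1.88, 2.46 and 1.85 RPKM in DMSO and at 1.62, 2.26 and 2.01 after 30 min. MXD4 was at 8.10, 10.4 and 9.43 RPKM and then at 7.57, 8.92 and 10.1, and MXD1 at 0.722, 0.699 and 0.570 and then at 0.699, 0.683 and 0.566. Each was lower after treatment in some pairs only, or by little. MXD3, MXI1, MGA, MAX, MLX and MYCL also overlapped. Within pairs, MGA was higher in all 3 (1.18-, 1.41- and 1.01-fold). MAX (ratios of 0.972, 0.948 and 0.976) and MXD1 (0.97, 0.98 and 0.99) were lower in all 3. The share of all genes that went 1 way in all 3 pairs was not counted, so little can be read from this, for MYC as well. With the block on recovered reads MGA had an unadjusted p of 0.0184 and an adjusted p of 0.9997 by limma voom.

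Replicate 1 differed from replicates 2 and 3 in both arms of the 30 min experiment, and for MYC this gap was wider than that between the arms. In both replicate 1 libraries MYC, MLX, MGA, MYCL and the antagonist MXD1 were highest of their group and MXD3, MXD4, MAX and MXI1 lowest. MYC reads per MNT read were 2.19 and 2.73 in the replicate 1 libraries and 1.09 to 1.42 in the other 4. MYC thus lay high where MXD4 lay low both between these replicates and between the groups of the 2 h experiment. Over the 10 libraries, with each experiment's mean removed, MYC correlated with MXD4 at r = -0.87 and with MNT at -0.81 (Pearson, log2(RPKM + 1)), and MXD3 with MXD4 at 0.88. The 10 points share the 2 h contrast, the replicate 1 libraries and the scaling of each library, so these are descriptions without a test.

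By the same measure over 6552 genes, the patterns most like that of MYC were those of TUFT1 (r = 0.98), the amino acid transporter SLC7A5 (0.98), the actin crosslinker ACTN1 (0.98), PXDC1 (0.98) and a gene without symbol, ENSG00000249590 (0.97). SLC7A5 went from 4.33 ± 0.198 RPKM in untreated cells to 11.8 ± 1.94 after 2 h (SD, n = 2). The genes most like MXD4 were ZNF775, AGAP2, AGAP2-AS1, CDK2AP2 and CRAT (r = 0.98 to 0.99). Those most like MNT were PRMT2, TYSND1, RPL10, WDR6 and DCAF8 (r = 0.97). AGAP2 and AGAP2-AS1 are an antisense pair, and their reads may not be separable.

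The effects at 2 h and 30 min were then compared directly, as a contrast over all 10 libraries in which time, kind of control and experiment cannot be told apart. Of the 6 members tested, 0 differed by limma, beside 1.63% of 6558 genes, and 1 member, MNT, had an unadjusted p under 0.05 (0.0163). The difference was 0.65 for MYC (adjusted p = 0.329), -0.44 for MNT (0.199) and -0.44 for MXD4 (0.314), all by limma. The labels do not say that replicate numbers mark pairs, but same-numbered libraries of the 30 min experiment deviated together. Blocking on replicate number in that experiment only, a fit chosen after seeing the data, gave 10.1% of genes and 2 of the 6 members. The adjusted p by limma was then 0.0113 for MYC, 0.0145 for MNT and 0.0924 for MXD4. On recovered reads this block gave 8.2% of 13901 genes and 3 of 9 members, MYC, MNT and MXD1 (0.84, adjusted p = 0.00108 by limma voom). With the block extended to the 2 h libraries, whose numbers are not shown to pair them, 19.1% of genes and 3 members differed, MXD4 among them (adjusted p = 0.0406 by limma). On recovered reads that fit gave 15.1% of genes and 4 members. The MXD4 difference thus passed only with the 2 h libraries paired. With both replicate 1 libraries of the 30 min experiment left out and no block, the adjusted p was 0.0698 for MYC, 0.124 for MNT and 0.239 for MXD4.

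Other genes of the pathway were read from lists chosen by role, with earlier results of these data known. Their counts are therefore descriptions and no independent readout. Of the 3 other network genes, MYCN was listed at 0 in all 10 libraries, and MLXIP and MLXIPL lay below the filter. None of the listed genes changed at 30 min. The counts at 2 h are to be read beside the 13.1% of all genes that changed by limma and the 14% on recovered reads. Of the SIN3 and histone deacetylase corepressor genes, 11 of 14 were tested and 1 fell, the deacetylase HDAC1, from 2.15 to 1.64 RPKM (log2 change -0.25, adjusted p = 0.0447 by limma), with a list median of -0.078; on recovered reads 2 of 14 fell. Of the MGA complex, 6 of 10 were tested and 1 rose, RYBP, from 1.05 to 1.57 RPKM (0.33, adjusted p = 0.0380 by limma), with a median of -0.14. On recovered reads 1 of 10 rose and the median was 0.098, of the other sign. Of the MYC coactivators, 9 of 14 were tested and 1 rose, CCNT1, the cyclin partner of the elongation kinase CDK9, from 1.77 to 2.65 RPKM (0.40, adjusted p = 0.0152 by limma), with a median of -0.084. On recovered reads all 14 were tested and 3 rose, with a median of 0.070. These were CCNT1 and, named after their values were seen, the acetyltransferase scaffold TRRAP (0.54, adjusted p = 0.00352) and its chromatin remodelling partner EP400 (0.46, adjusted p = 0.0163), both by limma voom and below the RPKM filter.

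Among genes acting on MYC protein stability, 6 of 11 were tested and 1 fell. This was the mitotic kinase AURKA, which protects MYC family proteins from degradation, from 3.48 to 2.34 RPKM (-0.42, adjusted p = 0.0113 by limma). The list median was 0.11. On recovered reads all 11 were tested, 2 rose (USP36 and HUWE1) and 2 fell (AURKA and SKP2), with a median of 0.0056. SKP2, a ubiquitin ligase subunit that targets MYC, went from 0.995 ± 0.152 to 0.466 ± 0.0488 RPKM (SD, n = 2; log2 change -1.09, adjusted p = 7.24e-05 by limma voom), below the RPKM filter. USP36, HUWE1 and SKP2 were named after their values were seen. The calls of HDAC1 and AURKA were lost without either merbarone 2 h library (adjusted p of 0.347 and 0.341 for HDAC1, 0.0618 and 0.0860 for AURKA, by limma), and that of HDAC1 also with median scaling (0.0600). Those of RYBP and CCNT1 were lost without merbarone replicate 1 (0.272 and 0.0941 by limma).

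The MYC-activated list holds mostly nucleolar, nucleotide and metabolic genes. Of its 42 genes, 32 were tested, 1 rose, 2 fell and 29 did not pass at 2 h, with a median of -0.066 beside -0.048 for all genes. SHMT2, a mitochondrial enzyme of one-carbon metabolism, rose from 24.7 to 39.2 RPKM (0.64, adjusted p = 0.00718 by limma). The ribosome assembly factor RRS1 fell from 22.2 to 13.3 RPKM (-0.70, adjusted p = 0.00436) and the prohibitin PHB1 from 11.2 to 7.61 RPKM (-0.50, adjusted p = 0.0183), both by limma. On recovered reads all 42 were tested, 3 rose and 5 fell. The call of SHMT2 was lost without merbarone replicate 2 (adjusted p = 0.0669 by limma) and that of PHB1 without replicate 1 (0.138). That of RRS1 was lost on recovered reads without merbarone replicate 2 (0.0549 by limma voom) and with all 10 libraries (0.0744 by limma).

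Of 8 genes that MYC is known to repress, 6 were tested, 3 rose and 0 fell, with a median of 0.47. On recovered reads all 8 were tested, 5 rose and 0 fell, with a median of 0.49. GADD45A, a growth arrest and DNA damage gene, went from 13.4 ± 0.292 to 68.0 ± 12.0 RPKM (SD, n = 2), up by 2.25 on the log2 scale (adjusted p = 1.74e-05 by limma). CDKN1A, the cyclin-dependent kinase inhibitor p21, went from 36.2 ± 1.70 to 106 ± 23.5 RPKM (SD, n = 2), up by 1.50 (adjusted p = 3.85e-04 by limma). CDKN2B, the inhibitor p15, went from 11.9 to 18.3 RPKM (0.58, adjusted p = 0.00658 by limma), a call lost without merbarone replicate 1 (0.0583). GADD45A and CDKN1A are also known targets of p53.

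**Figure D4:**
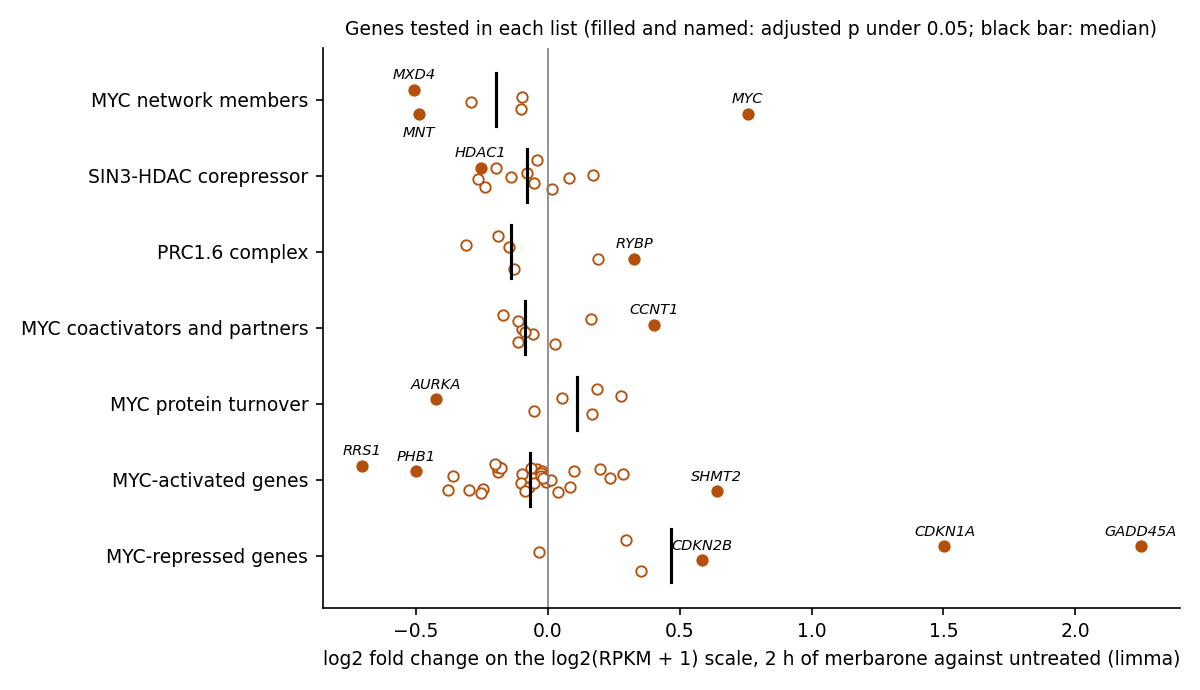
Log2 change after 2 h of merbarone against untreated cells for each tested gene of the members and the pathway lists (limma); filled points are named and passed an adjusted p under 0.05, and black bars are list medians. The MYC-activated genes have a median of -0.066, while GADD45A and CDKN1A of the MYC-repressed list lie at 2.25 and 1.50.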

How the data were processed

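RNA was measured by sequencing of poly(A)-selected libraries (TruSeq Stranded mRNA, 150 ng of total RNA, per the labels' protocols). The authors deposited 1 table of RPKM per library, per the file headers; the submitters' processing notes name Bowtie 1.2.0 and hg19/GRCh37, and the read counter and its use of strand are not given in the sources used here. Whole reads were recovered for 17680 of 17680 genes above 0 from the RPKM steps, with totals within 0.0368%. Positions are GRCh37 annotation, except those of the promoter windows, which are GRCh38.p14.

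Tests were two-sided in limma 3.58.1 (R 4.3.3) on log2(RPKM + 1), which understates changes of low genes, for genes averaging 1 RPKM or more, each experiment fitted alone. Alternatives were voom on recovered reads, other filters, pseudocounts, scalings and blocks, and left-out libraries; the code was tested on simulated reads. Members and lists were chosen with earlier results of these data known. The text names all members, the 5 genes most like MYC and each changed member, and up to 4 changed genes a list. Same-numbered libraries of the 30 min experiment deviated together (r = 0.925, 0.646 and 0.605), so the numbers in the labels were taken as pairs there. TXNIP and PECAM1 were not analysed here, and 1 gene of the lists is not reported here.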

Additional observations from a re-analysis of the deposited data

Results flagged for a closer look

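For 2 genes of the MYC-repressed list the effect of merbarone at 2 h differed from that at 30 min by a test of the difference (limma, all 10 libraries). For GADD45A the 2 h effect was larger by 2.27 on the log2 scale (adjusted p = 0.0225; -0.024 at 30 min and 2.25 at 2 h). For CDKN1A it was larger by 1.40 (adjusted p = 0.0112; 0.11 at 30 min and 1.50 at 2 h). Time, kind of control and experiment cannot be told apart in this difference. Over the alternatives tried the adjusted p ran from 5.01e-08 to 0.128 for GADD45A and from 1.05e-06 to 0.0590 for CDKN1A. The GADD45A difference was lost without merbarone 30 min replicate 3 (0.0600), untreated replicate 1 (0.0711), untreated replicate 2 (0.0998), merbarone 2 h replicate 1 (0.0747) or merbarone 2 h replicate 2 (0.128), and that of CDKN1A without untreated replicate 1 (0.0514) or untreated replicate 2 (0.0590).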

How the results depend on the processing

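Depth, 2 libraries a group at 2 h and the filter on low genes set what could be tested. At 30 min the count of changed genes (1) was 0 with no filter, 2 with all 10 libraries, quantile normalization, median scaling or a filter at 5 RPKM, 8 with the replicate block, 13 with voom and the block, and 0 to 2 with 1 library left out; no member was called under any of these. At 2 h the count of genes (866) was 53 with no filter, 397 with at least 5 RPKM, 1880 with voom, 69 at an absolute log2 fold change of at least 1, and 328 to 2464 with 1 library left out (530, 2404 and up to 4123 by voom). The 2 h members called (3) were 0 with no filter, 1 with all 10 libraries, 0 at an absolute log2 fold change of at least 1, and 2 to 6 with 1 library left out. For the difference of effects (107 genes) the count was 361 with no filter, 36 with at least 5 RPKM, 66 with voom, 45 at an absolute log2 fold change of at least 1, and 38 to 86 with 1 library left out. The cause of these shifts was not tested, beyond the fewer or more genes and samples each setting holds. With 1 library left in an arm at 2 h, that library is assumed to vary like the other group. In the fits without a merbarone 2 h library, and in all voom fits of this kind, the spread was taken from all genes together. The counts and calls of these fits therefore say little about the spread of a single gene.

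At 2 h the pairs only share a number (r = 0.300), and the replicate block gave 2129 genes, or 3485 with voom and 5 members, the fifth being MXD3 (adjusted p = 0.00678 by limma voom; 0.00984 by limma with the block alone). For the difference the block gave 1255 genes and 3 members, and 2097 genes and 4 members with voom. Blocked in the 30 min experiment only, it gave 665 genes and 2 members, and 1140 genes and 3 members with voom. The block changed no other member's call.

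At 30 min the sign turned when 1 library was left out: MYC -0.078 to 0.30, MXD3 -0.18 to 0.082, MXD4 -0.16 to 0.028, MNT -0.12 to 0.045 and MLX -0.036 to 0.14 on the log2 scale. No member called at 2 h changed direction under any alternative. Without the filter the calls of all 10 pathway genes named at 2 h were lost (adjusted p of 0.0502 to 0.204 by limma), and with all 10 libraries those of AURKA (0.0941) and RRS1 (0.0744). Leaving out both replicate 1 libraries of the 30 min experiment, the block in that experiment only and the voom fits without 1 library were chosen after seeing the data.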
